A study of Mus musculus with 6 samples.

Results

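The 34 genes described here encode proteins of the centromere, the kinetochore and the spindle checkpoint. They were measured in cultured mouse cardiomyocytes, from control mice and from mice with a deletion of the glucocorticoid receptor. The genes were taken by name, as the rows whose Ensembl identifier maps to one of 34 gene symbols in the GENCODE annotation of GRCm38. All 34 were found among the 52550 genes counted. Cardiomyocytes were isolated from mouse hearts on postnatal day 1, enriched by magnetic sorting, and grown for 48 hours in medium containing 5% horse serum and 10% fetal bovine serum. They were then held for 24 hours without serum, and 100 ng of their RNA was made into QuantSeq 3′ libraries, which sequence only the end of each messenger RNA, next to its poly(A) tail. There were 3 control libraries and 3 GR-cKO libraries, the latter from mice with a deletion of the glucocorticoid receptor specific to cardiomyocytes. All 6 shared the same stage, culture and serum withdrawal. The labels name neither the deleted exon nor the Cre driver, and give no strain. They call the libraries biological replicates without saying whether these came from separate animals, litters or cultures, so the p-values speak for the spread among these 6 libraries alone, part of which may be technical.

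The kinetochore is the protein assembly that joins a chromosome to the spindle. It is built on centromeric chromatin marked by the histone variant CENP-A: an inner layer, the constitutive centromere-associated network, sits on that chromatin, and an outer layer containing the KNL1 and NDC80 complexes binds microtubules. Unattached kinetochores activate the spindle checkpoint, which delays anaphase, and the chromosomal passenger complex releases faulty attachments. Most of these genes are transcribed mainly in the G2 phase and mitosis, and cardiomyocytes largely leave the cell cycle soon after birth.

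Each library held 19371508 to 22583596 gene counts, and the 34 genes held 0.111% to 0.114% of them in control and 0.0658% to 0.0680% in GR-cKO. Levels below are CPM, a gene's count relative to the size of its library, with that size scaled by the trimmed mean of M values (TMM), and a count of 0 would allow up to 0.133 to 0.155 CPM. Nr3c1, which encodes the glucocorticoid receptor, stood at 68.1, 73.8 and 72.3 CPM in control and at 46.1, 42.7 and 44.1 CPM in GR-cKO (log2 fold change -0.69 ± 0.09 SE, edgeR quasi-likelihood test with Benjamini-Hochberg adjustment, adjusted p = 3.3e-06), and a deletion away from the sequenced 3′ end may leave this count as it was. Xist, the RNA of the inactive X chromosome, was at 271 to 292 CPM in control and at counts of 0, 2 and 0 in GR-cKO, so a difference in sex cannot be told apart from genotype. Mitochondrial ribosomal RNA took 2.44% to 2.76% of gene counts in control and 1.77% to 2.14% in GR-cKO, and its part in the results was not tested.

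The 34 genes, chosen with earlier results of these data known, were lower in GR-cKO as a body. Of the 34, 28 fell and 0 rose (edgeR quasi-likelihood test with Benjamini-Hochberg adjustment over all 14386 genes tested, adjusted p below 0.05), where 7.19% of all tested genes fell and 7.63% rose. At an unadjusted p below 0.05, 32 were lower and 0 higher, but many more of all tested genes pass this looser threshold. Cenpm, at an unadjusted p of 0.0482 in the edgeR test, ranked 3710 of the 14386 genes by p. DESeq2 and limma-voom also called 0 higher. All 34 log2 fold changes were negative, from -1.28 for Cenpf to -0.06 for Zwint, with a median of -0.86, beside a median of -0.01 and a 5th percentile of -0.74 over all tested genes. In 31 of the 34, every GR-cKO library lay below every control library, an ordering seen in 14.7% of all tested genes. The RNA came from bulk cultures, so fewer dividing cells and less of these RNAs per cell cannot be told apart.

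Added up, the 34 genes came to 1109, 1128 and 1098 CPM in the control libraries and 686, 671 and 678 CPM in the GR-cKO libraries. The groups were far apart relative to their spread: the means were 1112 ± 15.3 and 678 ± 7.29 CPM (SD, n = 3 each), a ratio of 1.64 of control to GR-cKO. An exact permutation test gave p = 0.1 (two-sided), the smallest that 3 libraries against 3 allow. All 34 passed the filter on low counts, with 35 to 2790 counts per gene and library. The median log2 fold change was similar at low and high levels. It was -0.88 over the 14 genes under 10 CPM in control, -0.86 over the 11 between 10 and 50 CPM, and -0.87 over the 9 at 50 CPM or more. Those 9 were not alike, and ran from -1.28 for Cenpf to -0.06 for Zwint. The genes with the highest levels, Bub3 (-0.31) and Cenpa (-0.53), fell by less than the median.

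**Figure D1:**
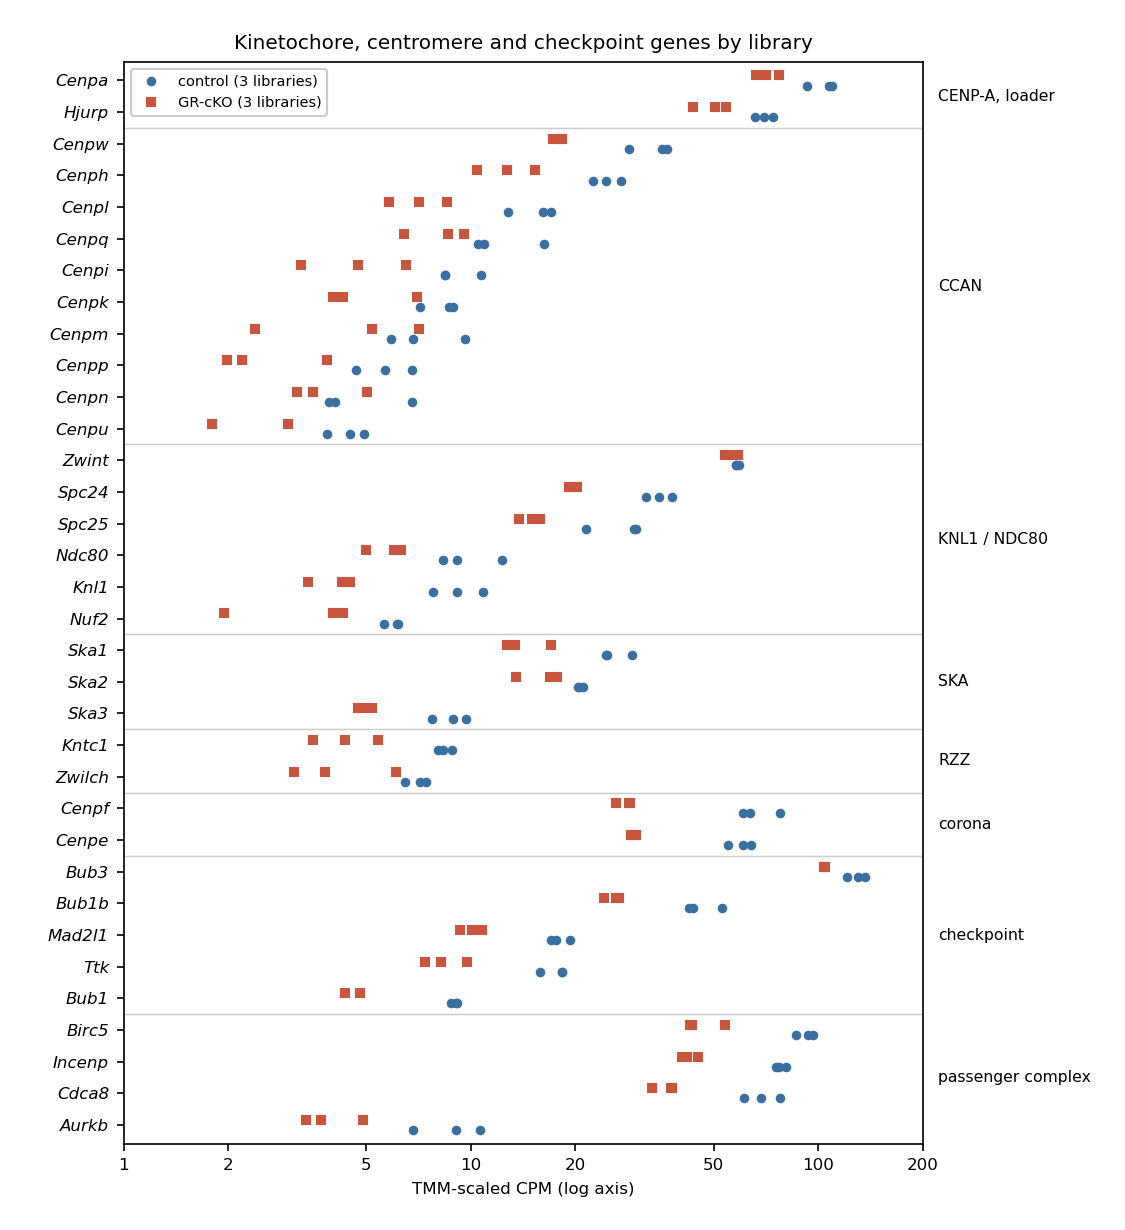
Level of each of the 34 genes in every library, as TMM-scaled CPM on a log axis, with blue circles for the 3 control libraries and red squares for the 3 GR-cKO libraries, grouped by complex. The squares lie left of all circles for 31 genes, and overlap them for Cenpm, Cenpn and Zwint.

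The promoters of these genes are shown because many cell cycle genes of late G2 and mitosis carry a CHR element (cell cycle genes homology region) and CCAAT boxes, which are bound by the MuvB-containing complexes and by NF-Y. RefSeq start sites on GRCm38.p6 gave a 300-base window, 250 before and 50 after the start, for 29 of the 34; the windows of Aurkb, Incenp, Ska1, Spc24 and Zwilch were not analysed here. A CHR, searched as TTTGAA or TTCGAA on both strands, was found in 17 of 29 windows (58.6%), against 19.4% of 27025 windows of all genes in the table. CCAAT, on both strands, was in 22 of 29 (75.9%), against 37.9% of all. Both together were in 14 of 29 (48.3%), against 7.7% of all. The E2F core, searched as TTCCCGC or TTCGCGC or TTGCCGC or TTGGCGC on both strands, was in 5 of 29 (17.2%), against 9.69% of all. Of 65 matches, 8 overlapped a match of another motif. These are matches of letters and not binding sites, and no test was run on the shares.

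Up to 150 bases upstream are printed for 6 of them, 5′ to 3′ along the gene, with CCAAT or its reverse complement ATTGG and the CHR in capitals. The stretches stop at annotated exons, so those of Bub1, Zwint and Cenpm leave out the last 6, 1 and 74 bases before the start. Cenpf, Ttk and Bub1 were chosen as genes at least 2-fold lower with a pair of CCAAT boxes, Birc5 as a gene that fell with none of the motifs in its window, Zwint as the gene that changed least, and Cenpm as a stretch in which a CHR stands beside CCAAT boxes. They come from chr1:189688087-189688236 (minus strand, Cenpf), chr9:83834539-83834688 (plus, Ttk), chr2:127831866-127832015 (minus, Bub1), chr11:117849087-117849236 (plus, Birc5), chr10:72654695-72654844 (plus, Zwint) and chr15:82244411-82244560 (minus, Cenpm) of GRCm38.p6.
Cenpf: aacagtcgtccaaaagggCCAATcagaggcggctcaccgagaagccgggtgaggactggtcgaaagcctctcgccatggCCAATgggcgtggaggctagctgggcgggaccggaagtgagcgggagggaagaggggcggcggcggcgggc
Ttk: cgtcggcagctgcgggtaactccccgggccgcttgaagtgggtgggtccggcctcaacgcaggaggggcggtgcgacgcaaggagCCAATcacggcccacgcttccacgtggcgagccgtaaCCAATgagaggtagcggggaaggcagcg
Bub1: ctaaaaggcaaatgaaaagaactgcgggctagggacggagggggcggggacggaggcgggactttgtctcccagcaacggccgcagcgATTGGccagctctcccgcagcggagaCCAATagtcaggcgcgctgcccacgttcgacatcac
Birc5: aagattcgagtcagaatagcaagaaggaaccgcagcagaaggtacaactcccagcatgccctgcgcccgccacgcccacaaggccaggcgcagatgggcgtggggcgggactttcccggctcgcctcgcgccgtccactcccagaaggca
Zwint: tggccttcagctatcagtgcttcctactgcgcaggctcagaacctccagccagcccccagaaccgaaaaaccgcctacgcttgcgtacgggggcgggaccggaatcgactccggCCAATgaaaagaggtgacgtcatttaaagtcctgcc
Cenpm: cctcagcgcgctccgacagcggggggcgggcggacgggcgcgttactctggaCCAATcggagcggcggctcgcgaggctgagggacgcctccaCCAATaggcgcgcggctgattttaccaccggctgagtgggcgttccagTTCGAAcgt
In Cenpf the CCAAT matches begin 132 and 71 bases before the start, and a CHR begins at base 3 after it, outside the printed stretch. Ttk has CCAAT at 65 and 28 bases before the start and a CHR at base 8 after it, and Bub1 at 68 and 42 bases before and a CHR at base 15. Zwint has CCAAT 37 bases before the start and again at base 14 after it, and no CHR match. Cenpm has CCAAT 172 and 131 bases before the start and a CHR 83 bases before it. Its E2F core match, 70 bases before the start, lies outside the printed stretch. Among the 29 genes, the median log2 fold change was -0.86 with a CHR match and -0.88 without one, and -0.89 with and -0.84 without CCAAT. For the E2F core it was -0.61 over the 5 genes with a match and -0.89 over the 24 without. Those 5 ran from -1.10 for Cenpl to -0.33 for Cenpn, and Cenpm, Ska2 and Cenpn among them did not pass. The medians thus lay close together for the CHR and CCAAT and further apart for the E2F core, and no test was run on these differences.

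CENP-A is the histone H3 variant that marks the centromere, and HJURP is the chaperone that deposits it; both genes fell, by less than most of the others. Cenpa stood at 93.3, 110 and 107 CPM in control and at 77.2, 66.1 and 71.0 CPM in GR-cKO, a change of -0.53 ± 0.09 (log2, with its SE; edgeR quasi-likelihood test with Benjamini-Hochberg adjustment, adjusted p = 8.12e-05). Hjurp stood at 74.2, 65.8 and 70.0 CPM against 50.6, 54.2 and 43.6 CPM, with -0.50 ± 0.09 and an adjusted p of 4.77e-04. Neither gene's groups overlapped. Their ratio, Hjurp to Cenpa, was 0.683 ± 0.102 in control and 0.697 ± 0.109 in GR-cKO (SD, n = 3 each), and the groups overlapped.

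The constitutive centromere-associated network, the inner kinetochore layer, had 8 of its 10 measured genes lower and 0 higher, with a median log2 fold change of -0.92. Cenpl, whose product pairs with CENP-N to bind the CENP-A nucleosome, fell from 16.1, 17.0 and 12.8 CPM to 7.09, 5.82 and 8.54 CPM (-1.10 ± 0.18, adjusted p = 1.04e-04). Cenpw, a histone-fold subunit, fell from 35.6, 36.8 and 28.6 CPM to 18.3, 17.3 and 18.1 CPM (-0.91 ± 0.12, adjusted p = 7.19e-06). In both genes the highest GR-cKO library was below the lowest control library by more than the range of the GR-cKO libraries. Cenph (-0.94 ± 0.15, adjusted p = 5.29e-05) and Cenpi (-0.93 ± 0.24, adjusted p = 0.00837) encode partners in one subcomplex with CENP-K, whose gene Cenpk was lower by a narrower margin (-0.70 ± 0.24, adjusted p = 0.0481). Cenpi is the 1 gene of the 34 on the X chromosome, and stood at 8.43, 10.7 and 8.44 CPM in control and 3.25, 6.52 and 4.73 CPM in GR-cKO.

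Cenpp, Cenpu and Cenpq encode subunits of another subcomplex of this layer, and all 3 were lower. Cenpp stood at 6.75, 4.68 and 5.67 CPM in control and 1.99, 2.19 and 3.86 CPM in GR-cKO (-1.09 ± 0.30, adjusted p = 0.0133). Cenpu stood at 4.93, 3.84 and 4.49 CPM against 2.98, 1.79 and 1.80 CPM (-1.01 ± 0.32, adjusted p = 0.0331), the lowest levels of the 34 in GR-cKO together with Cenpp. Cenpq stood at 10.9, 16.3 and 10.5 CPM against 8.58, 9.55 and 6.43 CPM (-0.62 ± 0.20, adjusted p = 0.0384). No GR-cKO library reached the control range in any of these genes. Scaling by spike-in RNA ended the calls of Cenpu (adjusted p = 0.0696) and Cenpq (0.0917), and that of Cenpk (0.101). Of the last 300 annotated bases, all 300 of Cenpp lie on exons of Ippk and 158 of Cenpu on exons of Primpol, genes of the opposite strand. The counting's strand setting is not given in the sources used here, so reads of the partners cannot be told apart.

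Cenpm and Cenpn were the members of the inner layer that did not pass. Cenpm stood at 9.63, 5.90 and 6.81 CPM in control and at 2.39, 7.07 and 5.20 CPM in GR-cKO (log2 fold change -0.61, 95% interval -1.19 to -0.04, adjusted p = 0.187). Cenpn stood at 6.75, 4.07 and 3.90 CPM against 3.16, 5.03 and 3.50 CPM (-0.33, 95% interval -0.90 to 0.23, adjusted p = 0.524). In both, GR-cKO replicate 2 was higher than at least 1 control library. Both intervals still hold a change as large as the median of the other genes, so at this depth these 2 genes cannot be set apart from them.

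The corona proteins CENP-E and CENP-F coat the outside of unattached kinetochores, CENP-E as a kinesin motor that carries chromosomes along microtubules and CENP-F as a large coiled-coil protein that links to dynein. Cenpf (GRCm38 chromosome 1, 189640606 to 189688086, minus strand) had the largest fall of the 34, from 77.8, 63.7 and 60.6 CPM to 26.2, 28.7 and 28.5 CPM (-1.28 ± 0.10, adjusted p = 3.76e-09). Cenpe fell from 61.0, 63.9 and 54.9 CPM to 29.9, 29.0 and 29.6 CPM (-1.02 ± 0.10, adjusted p = 3.95e-08). For both genes the GR-cKO libraries were tightly grouped and far below control. Together these genes came to 127 ± 11.7 CPM in control against 57.3 ± 1.01 CPM in GR-cKO, a ratio of 2.22, where the other complexes lay between 1.40 and 1.92. Such ratios weigh the most abundant genes most. The lowest, 1.40, was that of the KNL1 and NDC80 genes, whose sum holds Zwint and whose median log2 fold change was -0.82. The checkpoint sum holds Bub3, with a ratio of 1.44 and a median of -0.85.

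The KNL1 and NDC80 complexes form the surface that binds microtubules and recruits checkpoint proteins, and 4 of their 6 measured genes fell. Knl1 (chromosome 2, 119047119 to 119105501, plus strand), the scaffold that docks BUB1 and BUB3, went from 7.76, 10.8 and 9.13 CPM to 4.24, 4.48 and 3.40 CPM (-1.19 ± 0.22, adjusted p = 4.22e-04). Spc24 and Spc25, which anchor the NDC80 complex to the inner layer, fell by 0.83 and 0.86 on the log2 scale, with adjusted p-values of 1.05e-05 and 9.05e-05. Ndc80, the microtubule-binding subunit, fell from 8.33, 12.3 and 9.13 CPM to 6.27, 4.98 and 6.02 CPM (-0.78 ± 0.21, adjusted p = 0.0108). Nuf2, its partner, had a difference of much the same size, 6.18, 5.62 and 6.12 CPM against 1.94, 4.28 and 4.01 CPM, but did not pass (-0.81 ± 0.28, adjusted p = 0.0575). All of these were separated between the groups without overlap.

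Zwint stood apart within this layer. Its product binds KNL1 and takes part in recruiting the RZZ complex. It stood at 58.2, 59.4 and 57.9 CPM in control and at 53.9, 55.3 and 59.0 CPM in GR-cKO, with overlapping groups (GRCm38 chromosome 10, 72654845 to 72674964, plus strand; -0.06, 95% interval -0.23 to 0.11, adjusted p = 0.727). The interval leaves out a fall the size of the median of the 34. The ratio of Knl1 to Zwint was 0.158 ± 0.0244 in control and 0.0724 ± 0.0129 in GR-cKO, without overlap.

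The SKA complex, which tracks the ends of microtubules, and the RZZ complex, which brings dynein to the kinetochore, had 3 of 5 measured genes lower. Ska1 fell from 24.7, 24.5 and 29.2 CPM to 17.1, 12.7 and 13.4 CPM (-0.86 ± 0.14, adjusted p = 8.37e-05). Ska3 (-0.83 ± 0.21, adjusted p = 0.00721) and the RZZ subunit gene Kntc1 (-0.93 ± 0.22, adjusted p = 0.005) fell by similar amounts. Ska2 stood at 21.1, 20.5 and 20.4 CPM in control and 13.5, 16.9 and 17.7 CPM in GR-cKO (-0.37, 95% interval -0.64 to -0.10, adjusted p = 0.0757). Zwilch stood at 7.14, 6.46 and 7.40 CPM against 6.09, 3.09 and 3.81 CPM (-0.69 ± 0.25, adjusted p = 0.0732). Neither of these last genes passed, although their GR-cKO libraries all lay below control.

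All 5 checkpoint genes fell. Ttk, which encodes the kinase MPS1 that starts checkpoint signalling, went from 18.3, 15.9 and 18.3 CPM to 7.36, 9.75 and 8.18 CPM (-1.05 ± 0.16, adjusted p = 4.16e-05). Bub1, the kinase that MPS1 recruits through KNL1, went from 9.05, 9.13 and 8.78 CPM to 4.33, 4.33 and 4.79 CPM (49.9% of control, adjusted p = 0.00118). Both were at least 2-fold lower in the fit, and the libraries of a group differed little. Bub1b, which encodes the inhibitor BUBR1, fell from 43.7, 42.4 and 52.7 CPM to 26.3, 24.2 and 26.7 CPM (-0.85 ± 0.11, adjusted p = 3.97e-06). Mad2l1, which encodes the CDC20-binding inhibitor MAD2, fell from 19.3, 17.0 and 17.6 CPM to 10.1, 10.8 and 9.31 CPM (-0.84 ± 0.15, adjusted p = 2.52e-04).

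Bub3, which encodes the adaptor that carries BUB1 and BUBR1 to KNL1, had the highest level of the 34 and the smallest change among those that fell. It stood at 121, 131 and 137 CPM in control and at 104, 104 and 105 CPM in GR-cKO (chromosome 7, 131560222 to 131571895, plus strand; -0.31 ± 0.08, adjusted p = 0.00505), and scaling by spike-in RNA ended the call (-0.22, adjusted p = 0.168). The groups did not overlap. Bub1b to Bub3 was 0.361, 0.325 and 0.386 in control and 0.253, 0.233 and 0.254 in GR-cKO. Of 8 ratios between partner genes, chosen after the values were seen, this one and that of Knl1 to Zwint did not overlap between the groups, each with p = 0.1 in a two-sided exact permutation test, 0.4 after Benjamini-Hochberg adjustment over the 8. Ratios such as Ndc80 to Spc24 (0.289 ± 0.0841 and 0.294 ± 0.0423) and Birc5 to Incenp (1.19 ± 0.104 and 1.10 ± 0.2) overlapped.

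The chromosomal passenger complex joins the kinase Aurora B to the scaffold INCENP and to survivin and borealin, which target it to the centromere, and all 4 genes fell. Aurkb, the kinase gene, went from 10.6, 9.08 and 6.81 CPM to 3.70, 4.88 and 3.34 CPM (-1.15 ± 0.24, adjusted p = 0.00111). Birc5, which encodes survivin, went from 86.4, 93.6 and 96.6 CPM to 54.0, 42.6 and 43.2 CPM (-0.98 ± 0.10, adjusted p = 6.55e-08). Cdca8, which encodes borealin, fell by 0.93 and Incenp by 0.87 on the log2 scale, with adjusted p-values of 3.26e-07 and 1.07e-07. In each of the 4 the groups were apart, and summed they came to 248 ± 7.26 CPM in control against 130 ± 6.75 CPM in GR-cKO. Outside the corona, this was the largest ratio of the complexes, at 1.92.

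**Figure D2:**
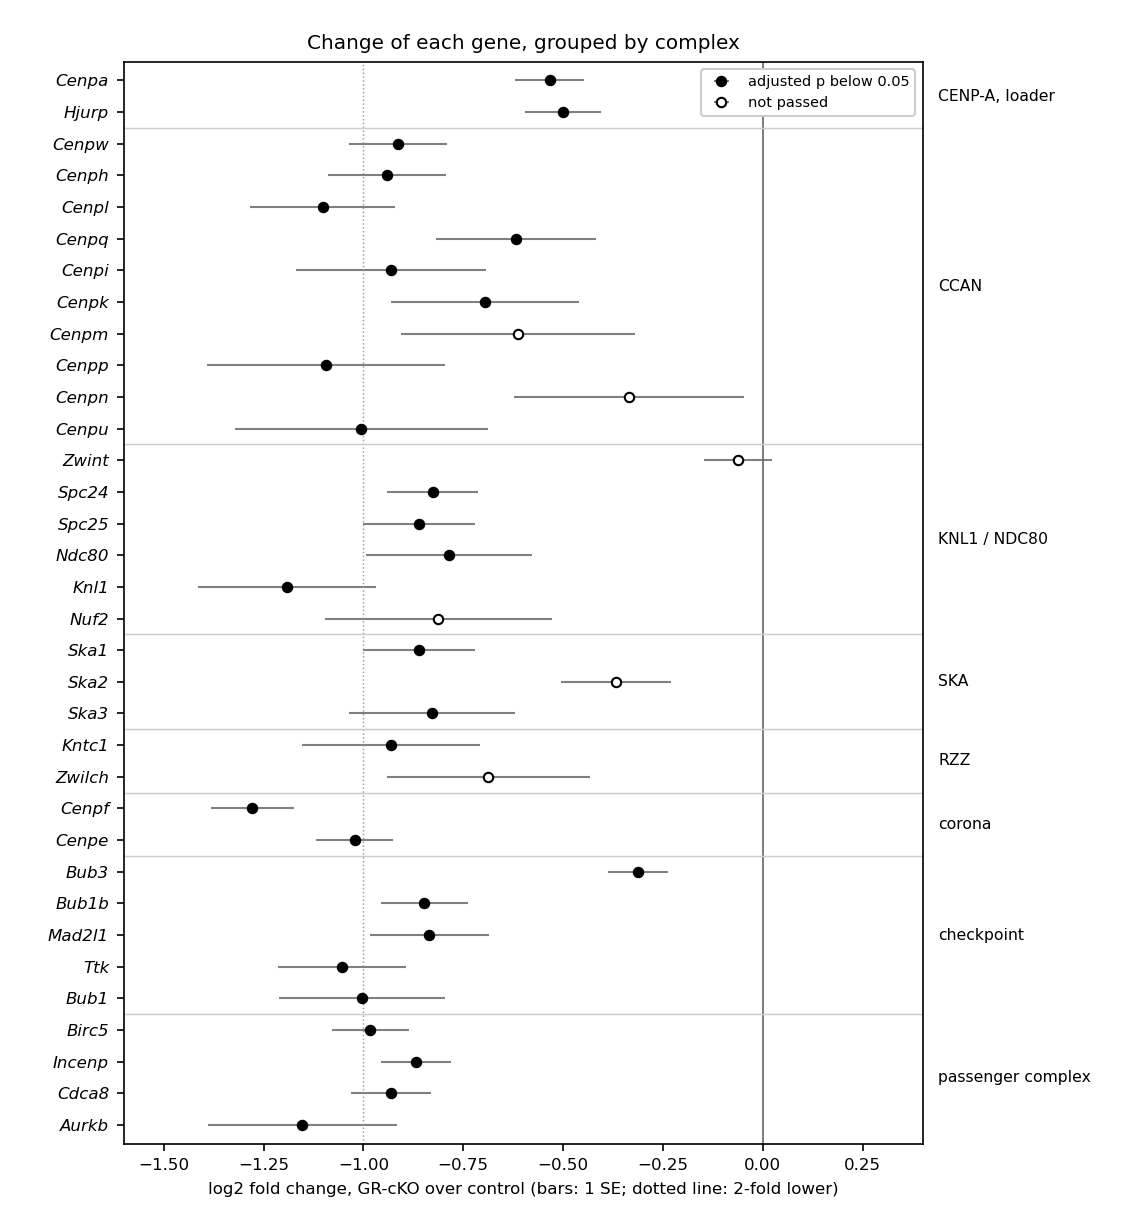
Log2 fold change of GR-cKO over control for each gene, with bars of 1 SE, grouped by complex; filled circles passed an adjusted p of 0.05 and open circles did not. Of the 34 values, 22 lie between -1.2 and -0.8, with Zwint at -0.06 and Bub3 at -0.31 nearest to 0 among the genes above 50 CPM.

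The 34 genes changed by similar but not equal amounts. Of them, 22 had log2 fold changes between -1.2 and -0.8, and 9 were both called and at least 2-fold lower, which 1.29% of all tested genes were. The level in GR-cKO ranged from 41.3% to 95.8% of that in control, with a median of 55.0%. As a result the makeup of the summed level differed. Bub3 made up 11.7% ± 0.776 of it in control and 15.4% ± 0.198 in GR-cKO, Zwint 5.26% ± 0.0141 and 8.27% ± 0.418, and Cenpf 6.06% ± 0.831 and 4.10% ± 0.242 (SD, n = 3 each). In the order of mean CPM, which reads the tags of each gene without regard to length, Zwint moved from rank 9 to rank 3.

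The spread of the summed level within each group was small, and deviations of single genes did not follow 1 library. Genes at low levels could spread widely, as Cenpm did in GR-cKO (2.39 to 7.07 CPM). In any library, 14 to 20 of the 34 genes lay above their group's mean. Of the 28 genes that fell, 22 also passed whichever library was left out. Each of the 6 others was lost in more than 1 of these fits. Cenpi was lost without control replicate 2 (adjusted p = 0.0592) or GR-cKO replicate 1 (0.0635), and Ndc80 without control replicate 2 (0.11) or GR-cKO replicate 2 (0.0617). Cenpp was lost without control replicate 1 (0.0731), GR-cKO replicate 1 (0.0729) or GR-cKO replicate 2 (0.0661). Cenpq was lost without control replicate 2 (0.308), GR-cKO replicate 1 (0.0806) or GR-cKO replicate 3 (0.161). Cenpu was lost without control replicate 1 (0.113), control replicate 3 (0.0715), GR-cKO replicate 2 (0.125) or GR-cKO replicate 3 (0.0995), and Cenpk without control replicate 1 (0.121), control replicate 2 (0.15), GR-cKO replicate 1 (0.199) or GR-cKO replicate 2 (0.18). Nuf2 passed without GR-cKO replicate 2 (0.0479) and Zwilch without GR-cKO replicate 1 (0.0149). All of these genes were at 16.3 CPM or less in every library, and their direction was the same each time.

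Other genes of chromosome segregation were read from the same fit. Among 27 further kinetochore and centromere genes, 12 fell and 1 rose, with a median log2 fold change of -0.42. Sgo2a and Sgo1, which encode the shugoshins that protect centromeric cohesion, fell from 25.3 ± 4.48 to 11.8 ± 1.81 CPM and from 16.4 ± 0.914 to 7.34 ± 1.04 CPM (SD, n = 3 each; adjusted p = 1.15e-05 and 1.7e-05). Kif2c, a microtubule-depolymerizing kinesin, and Trip13, the ATPase that takes apart MAD2 complexes, each fell by 1.01. The 1 gene that rose was Clasp1, a microtubule stabilizer named after its value was seen (0.30 ± 0.08, adjusted p = 0.00826), and without control replicate 2 the number that rose was 0. Among 21 genes of the anaphase promoting complex, the ubiquitin ligase that the checkpoint holds back, and of its activators, inhibitors and targets, 5 fell and 0 rose, with a median of -0.17. Its conjugating enzyme Ube2c (-0.82), its activator Cdc20 (-0.79), the separase gene Espl1 (-0.90) and Fbxo5, an inhibitor of the complex at 50.1% of its control level, were among the 5, and the fifth, Anapc5 (-0.24), named after its value was seen, was the 1 subunit.

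Genes of the cell cycle at large moved in the same direction. Of 14 proliferation markers, 13 fell and 0 rose, with a median log2 fold change of -0.94, including Top2a (-1.14), Cdk1 (-0.93), Aurka (-1.23), Plk1 (-0.79) and Mki67, which averaged 45.8 ± 9.38 CPM in control against 23.9 ± 2.22 CPM in GR-cKO. Of 23 transcription factors and pocket proteins that act on cell cycle promoters, 8 fell and 0 rose, with a median of -0.23. The repressors E2f8 (-1.43) and E2f7 (-1.15), the activators Foxm1 (-0.77) and Mybl2 (-0.99, adjusted p = 0.0229), and Tfdp1 (-0.63), the partner of E2F proteins, were among them. Differences between the lists were not tested.

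**Figure D3:**
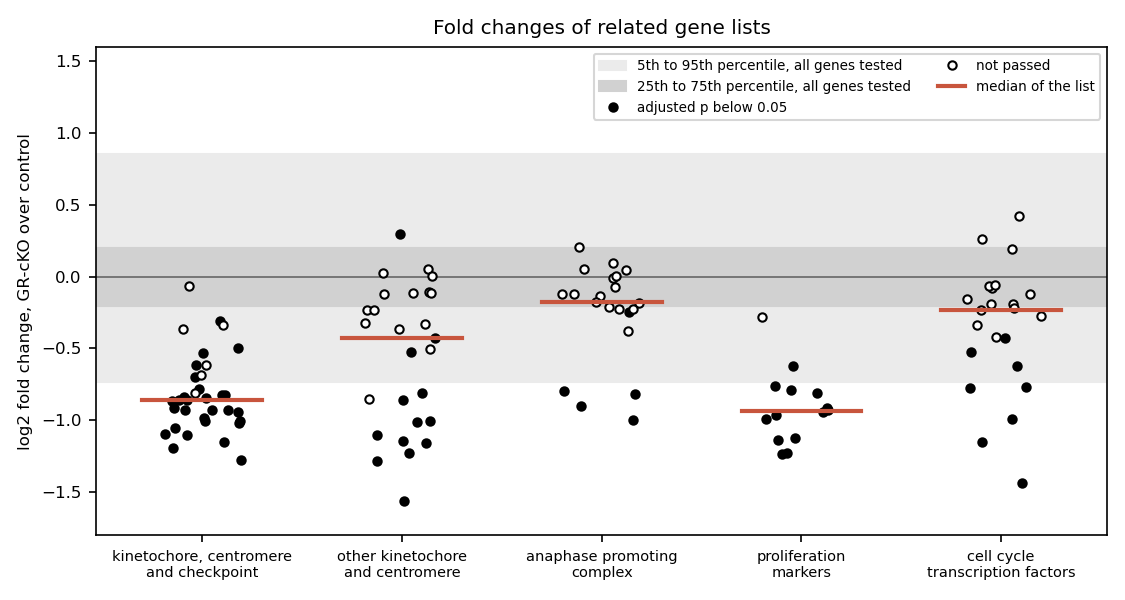
Log2 fold change of GR-cKO over control for the 34 genes and for the related lists, 1 point per gene (filled where the adjusted p was below 0.05), a red line for the median of each list, and grey bands from the 5th to the 95th and the 25th to the 75th percentile of all tested genes. The medians run from -0.94 for the proliferation markers and -0.86 for the 34 genes to -0.17 for the anaphase promoting complex and its regulators.

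Markers of the sorted cell type and of other heart cells were read in the same libraries. The summed level of 15 cardiomyocyte markers, led by Myl3 and Tnnt2, was 38572 to 40277 CPM in control and 49290 to 51844 CPM in GR-cKO, with 11 higher and 1 lower. Summed levels of 13 fibroblast markers (Col1a1, Vim) were 6289 to 6665 and 7888 to 8077 CPM, with 6 higher and 1 lower. For 12 endothelial markers (Eng, Egfl7) they were 1462 to 1559 and 1690 to 1862 CPM, with 9 higher and 1 lower. Of these lists none had a lower sum in GR-cKO. For 9 smooth muscle and pericyte markers (Acta2, Cspg4) they were 3741 to 3850 and 4445 to 4664 CPM, with 6 higher and 0 lower. For 10 epicardial markers (Krt18, Tbx18) they were 157 to 165 and 257 to 289 CPM, with 4 higher and 3 lower. Of 12 leukocyte markers (Lyz2, Csf1r), 4 passed the filter and 2 rose, with sums of 13.4 to 17.8 and 34.9 to 55.1 CPM and Cd3e at 0 in all libraries, and 6 erythroid markers (Hbb-bs, Hba-a1) summed to 1.31 to 3.21 and 3.52 to 4.99 CPM. The kinetochore genes fell in libraries in which the summed levels of cardiomyocyte markers and of other cell types' markers were higher. Such sums follow their most abundant genes. The epicardial sum rose mainly with the keratin genes Krt18 (mean rising from 47.4 to 148 CPM) and Krt19 (from 8.44 to 41.3). Yet 6 of the 10 epicardial markers had negative log2 fold changes, among them Tbx18 (from 65.5 to 44.6). Lyz2 made up most of the mean leukocyte sum, 12.9 of 15.8 CPM for control and 40.5 of 47.9 for GR-cKO. Single markers went both ways. The median log2 fold change was 0.30 over the cardiomyocyte, 0.22 over the fibroblast, 0.41 over the endothelial and -0.46 over the epicardial markers. The part of cell composition in the result was not tested.

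**Figure D4:**
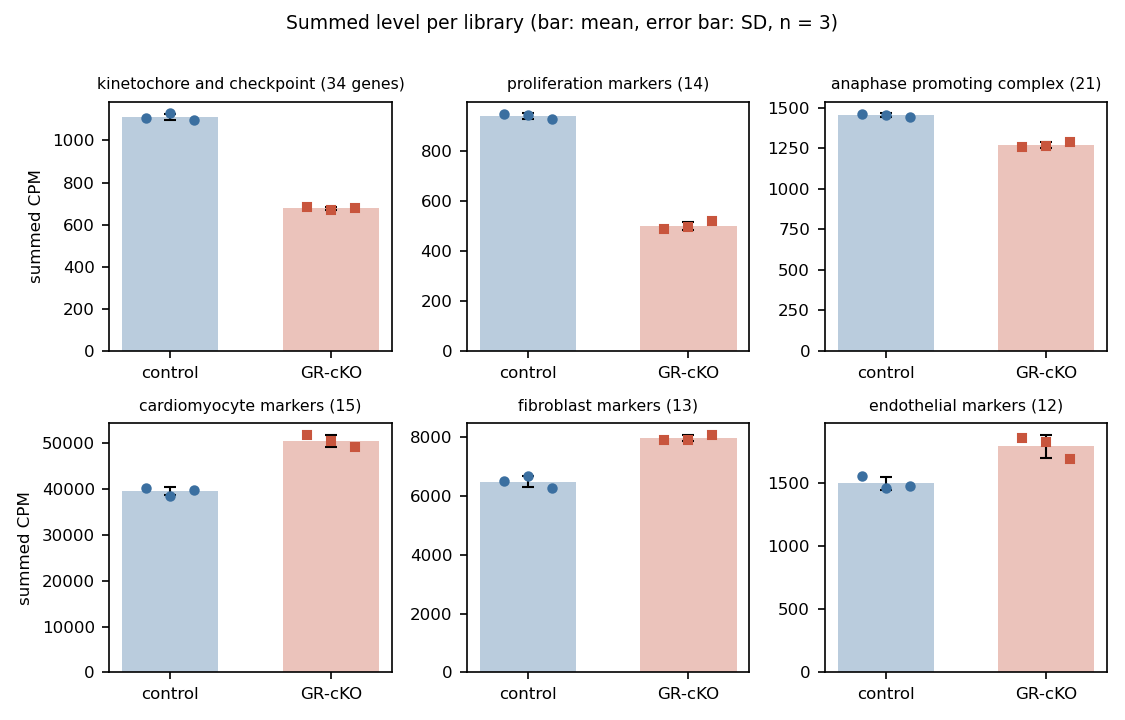
Summed TMM-scaled CPM per library for the 34 genes, the proliferation markers, the anaphase promoting complex, and the cardiomyocyte, fibroblast and endothelial markers, with 1 point per library, bars for the group mean and error bars of 1 SD (n = 3), on axes that start at 0. The upper lists lie lower in GR-cKO, with the 34 genes at 678 against 1112 CPM, and the marker lists below them lie higher.

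Some levels carry a limit from counting. Besides Cenpp and Cenpu, the genes Cdca8, Cenpk, Cenpq, Ska2, Ska3 and Zwilch share exon bases with a gene on the opposite strand. Setting aside such overlaps, the last 300 bases of 31 of the 34 transcripts had no near copy in another gene's transcript. A near copy was a stretch of 75 or more bases at 97% identity or above. Cenpf, Ska3 and Spc24 had at least 1. The end of Spc24 matched transcripts of many genes, 1 of them with 203637 counts over the libraries. How reads mapping to several places were counted is not given in the sources used here, so the level of Spc24 carries this limit most.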

How the data were processed

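The authors deposited raw counts per gene, as whole numbers, in 1 table for each of the 6 libraries. Per the submitters' processing notes, the build was GRCm38 and the tools named include STAR 2.5.4a, featureCounts 1.6.2, cutadapt 1.16 and DESeq2 1.18.1, without their roles; for the strand setting and for multimapping reads, the choice is not given in the sources used here. Spike-in rows (92 ERCC and 7 SIRV), 1.98% to 2.36% of a library's counts, stayed out of library sizes and tests. GENCODE M21 matched 52403 of 52550 gene identifiers.

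The 6 libraries were compared as 3 control against 3 GR-cKO with edgeR 4.0.16 in R 4.3.3: TMM factors (0.980 to 1.024), the default filter on low counts, the quasi-likelihood test and Benjamini-Hochberg adjustment over 14386 genes, with a threshold of 0.05. Fold changes are log2, GR-cKO over control. The script was tested on simulated data, with 50 genes changed at each size. It called 0 of 50 at 1.25-fold, 20 at 1.5-fold, 42 at 2-fold and 48 at 3-fold, so small changes were rarely called. Of 14187 unchanged genes, 14 were called. Pairs of libraries within a group differed beyond sampling noise (median chi-square 2.48 to 3.67 per gene). Technical variation could give such differences too, so they do not show that the libraries are independent. Each library was counted as 1 replicate. Floors are 3 counts and cover counting error only. Alternatives were other scalings, filters, tests (DESeq2 1.42.0 and limma-voom 3.58.1), a replicate block, each library left out, and genes of X and Y left out.

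The 34 genes and all gene lists were chosen with earlier results of these data known. Named are all 34, Nr3c1, up to 4 genes of each related list with the smallest p, Mki67, Cdc20, Foxm1 and Mybl2, and the 2 highest markers of each cell type; Xist, Clasp1, Anapc5 and the genes named as overlapping neighbours were added after the values were seen. Promoters are from RefSeq on GRCm38.p6, and 3′ ends were compared with BLAST 2.17.0.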

Additional observations from a re-analysis of the deposited data

How the results depend on the processing

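The count of 28 genes lower stayed between 24 and 30 under the 15 alternatives, and 0 of the 34 were higher in any. ERCC spike-in scaling gave 24 lower (Bub3, Cenpk, Cenpq and Cenpu lost), a median log2 fold change of -0.76 and a summed ratio of 1.54; it also shifted the median of all genes to 0.09, with 522 genes lower and 1355 higher in place of 1035 and 1097, and turned Zwint to 0.031. Scaling by the total gene count gave a median of -0.89 and a ratio of 1.68. The cause of these shifts was not tested. DESeq2 gave 26 lower, losing Cenpk and Cenpq, and limma-voom 29. Leaving out 1 library in turn gave 24 to 27 lower with medians of -0.89 to -0.86, and 0 to 1 higher among the other kinetochore genes, 0 without control replicate 2. Without the genes of X and Y, 27 of the remaining 33 were lower. Libraries with the same replicate number did not deviate together (correlations of -0.0001, 0.037 and 0.020 across genes), so the numbers were not taken as pairs; with the replicate block 30 were lower, Nuf2 and Zwilch added. Depth limits the genes under 10 CPM, whose standard errors reach 0.32 on the log2 scale.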
